A study of Ovis aries with 30 samples.

Results

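The genes described here are CYP1A1 and 7 others tied to the aryl hydrocarbon receptor (AHR) pathway: AHR, ARNT, TIPARP, ALDH3A1, UGT1A6, LRAT and SLC7A5. These 8 genes were taken by name from the 31304 gene rows of a count table of sheep liver RNA, and 8 of 8 had a row. The table covers 30 lambs of the first generation, and the study asked how contact of the mother with biosolids before and during pregnancy bears on the liver transcriptome of male and female offspring. Biosolids are treated sewage sludge spread on pasture as fertiliser, and dioxin-like chemicals, the classical activators of AHR, are among the contaminants they can carry. The groups were 8 female and 7 male lambs labelled as exposed to biosolids before birth, and 8 female and 7 male control lambs. No genotype, dose, litter or age at sampling is given in the sources used here, and the lambs themselves received no labelled treatment. Each lamb gave 1 library of whole liver and is named by its tag number. Libraries held 18.7 to 51.9 M counts in total (M, mega-counts).

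AHR is a transcription factor that waits in the cytoplasm with HSP90 and PTGES3, binds planar aromatic ligands such as dioxins and tryptophan metabolites, and moves to the nucleus. There it pairs with ARNT and binds xenobiotic response elements near its target genes. In liver its best known target is CYP1A1, a cytochrome P450 that oxidises polycyclic aromatic hydrocarbons, followed by the conjugating enzyme UGT1A6 and the aldehyde dehydrogenase ALDH3A1 in several species. TIPARP, also an induced target, is an ADP-ribosyltransferase that represses AHR, and AHRR is a repressor that competes for ARNT. LRAT esterifies retinol for storage in stellate cells, and SLC7A5 carries large neutral amino acids, tryptophan among them, into cells. Both have been linked to AHR signalling outside sheep.

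No gene of the pathway passed the test for biosolids exposure in either sex. CYP1A1 in males had the smallest p of the 8: its level in biosolids males was 0.457 times that in control males, while its estimate in females was positive. Neither difference held after adjustment over all genes tested. The barely detected ALDH3A1 had a larger male estimate, with a larger error. The receptor, its partner and the remaining targets had estimates in males between -1.27 and 0.02 on the log2 scale, with every group overlapping its counterpart. The 8 genes also differed in how they varied together from lamb to lamb. AHR, UGT1A6 and SLC7A5 were correlated over the 30 lambs, unevenly from group to group, and no relation of CYP1A1 with the other 7 passed.

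Levels are in CPM, the counts of a gene per M counts of its library, on library sizes scaled by TMM, a method that balances libraries against a few dominating genes. Hepatocyte markers summed to between 60484 and 121716 CPM per lamb. One library stood apart: biosolids male 8778 had 87.5% of its counts on ribosomal RNA rows, against 0.299% to 7.69% in the other 29, which left 2.34 M other counts. It nevertheless held 587 counts of CYP1A1, but only 11 of SLC7A5 and 1 of ALDH3A1. Estimates of the 8 genes in males are therefore also given without it. Male estimates of markers and other listed genes include it. The quasi-likelihood test of edgeR, adjusted over 17840 genes by Benjamini-Hochberg, called 0% of them for exposure in females, 0% in males, 0% over both sexes and 0% for the difference between the sexes. At an unadjusted p under 0.05 the shares of all genes were 3.65% in females, 5.44% in males, 4.3% over both sexes and 3.63% for the difference. The filter on low counts was passed by 8 of the 8 pathway genes, and 0 were called in these contrasts. At the unadjusted threshold, 1 of the 8 passed in males and 1 for the difference, CYP1A1 in both, and 0 passed in females or over both sexes. DESeq2 called 4 genes for exposure in males and 1 for the difference between the sexes, and limma voom called 0 in males; none was one of the 8.

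The receptor gene AHR (chromosome 4, 26780710 to 26831471, plus strand, assembly ARS-UI_Ramb_v3.0, 11 exons) was lower on average in both exposed groups, by less than the spread between lambs. In females its lowest, median and highest levels were 34.0, 49.9 and 69.2 CPM with biosolids, against 31.1, 54.6 and 86.9 CPM in controls. In males they were 34.7, 69.6 and 98.6 CPM with biosolids, against 56.8, 84.3 and 98.7 CPM in controls. The ranges overlapped in both sexes, and 3 of 7 biosolids males lay below every control male. On the log2 scale the fold change of biosolids over control was -0.16 ± 0.20 (SE) in females and -0.27 ± 0.21 in males, with adjusted p = 1 and 0.83 in edgeR. Without library 8778 the male estimate was -0.28.

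AHR was the one gene of the set with an unadjusted p under 0.05 between the sexes in controls, where 18.9% of all genes had one. It averaged 80.0 ± 14.4 CPM in control males (SD, n = 7) and 57.0 ± 16.3 CPM in control females (SD, n = 8), and 0 of the 7 control males lay below the control female median. The log2 fold change, male over female, was 0.49 ± 0.20 with an adjusted p of 0.229 in edgeR, and so AHR did not pass. In exposed lambs the same contrast was 0.38 ± 0.20, with 66.6 ± 24.2 CPM in biosolids males and 51.0 ± 11.7 CPM in biosolids females.

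ARNT (chromosome 1, 100772050 to 100808082, minus strand, 21 exons), the partner that AHR needs to bind DNA, was the steadiest gene of the set. Its lowest, median and highest levels were 23.5, 28.1 and 34.5 CPM in biosolids females, against 21.5, 28.1 and 38.6 CPM in control females. They were 24.0, 29.8 and 37.1 CPM in biosolids males, against 23.3, 32.7 and 41.4 CPM in control males. The groups lay over one another in both sexes. Its fold change on the log2 scale was 0.01 ± 0.12 in females and -0.09 ± 0.13 in males, with the narrowest errors among the 8 genes. Without library 8778 the male estimate was -0.087.

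CYP1A1 (chromosome 18, 31609570 to 31615427, plus strand, 7 exons) had lowest, median and highest levels of 103, 168 and 242 CPM in biosolids males, against 127, 307 and 921 CPM in control males. All 7 biosolids males lay below the control male median, and 5 of 7 control males lay above every biosolids male, yet the ranges overlapped because control males 8364 and 8394 were within the exposed range. The log2 fold change was -1.13 ± 0.43, with a 95% interval of -2.01 to -0.25. Its p in edgeR was 0.0129 unadjusted and 0.816 adjusted over all genes. CYP1A1 ranked 193 among the 17840 genes by p. An exact two-sided permutation of exposure among the 14 males gave a difference of -0.94 in mean log2 CPM with p = 0.0198 over 3432 splits. This male difference was known before the gene was chosen, so that p is not independent evidence. Without library 8778 the fold change was -1.18. Without control male 8351 it was -0.74, and the unadjusted p became 0.0786.

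In females the CYP1A1 estimate had the other sign. The lowest, median and highest levels were 77.97, 336 and 663 CPM in biosolids females, against 76.2, 217 and 516 CPM in control females. Both groups held lambs near the bottom and near the top of the whole range, and 1 biosolids female, 8649, lay above every control female. The log2 fold change was 0.47 ± 0.39, with a 95% interval of -0.34 to 1.28 and an adjusted p of 1 in edgeR. The exact two-sided permutation gave a difference of 0.56 with p = 0.276 over 12870 splits. In single lambs left out in turn, the female estimate lay between 0.28, without biosolids female 8649, and 0.70, without control female 8245.

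**Figure D1:**
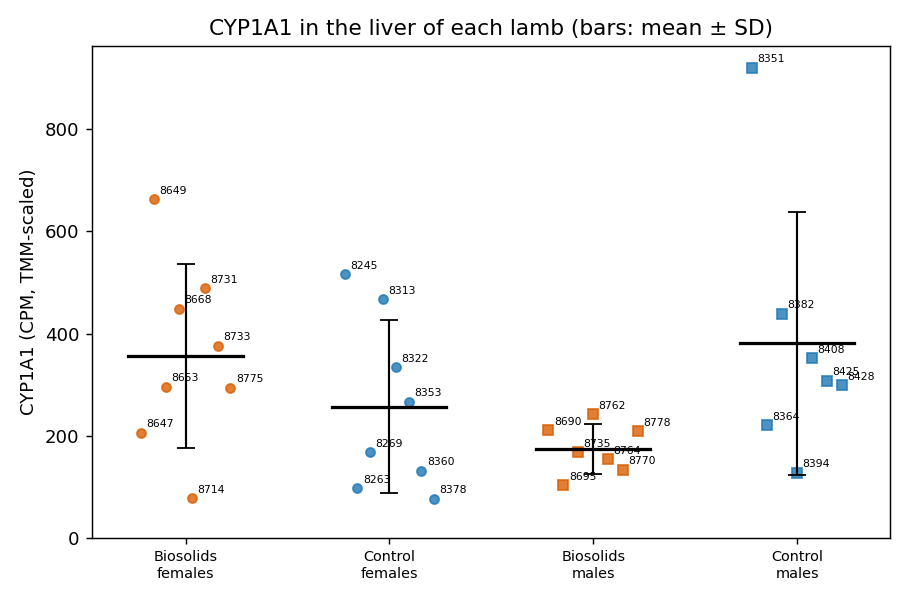
CYP1A1 level of each lamb in TMM-scaled CPM on a linear axis, by exposure and sex, with the tag number beside each point and bars for the mean ± SD. Biosolids males lie between 103 and 242 CPM, the narrowest of the 4 groups, and control male 8351 stands alone at 921 CPM.

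The male effect minus the female effect for CYP1A1 was -1.60 ± 0.58 on the log2 scale, with a 95% interval of -2.79 to -0.41. Its p in edgeR was 0.00984 unadjusted and 0.951 adjusted, and it ranked 104 among all genes. The difference between the sexes in response therefore did not pass. Among biosolids lambs, CYP1A1 averaged 174 ± 48.6 CPM in males (SD, n = 7) and 356 ± 181 CPM in females (SD, n = 8), and the p of that contrast in edgeR was 0.0187 unadjusted and 0.969 adjusted. Among control lambs the averages were 381 ± 258 CPM in males and 257 ± 169 CPM in females, with an adjusted p of 0.418. The SD of log2 CPM was 0.43 in biosolids males, against 0.88 in control males, and 0.95 in biosolids females, against 1.04 in control females.

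In males the hepatocyte markers had lower estimates, the same sign as CYP1A1, and none passed. The mean log2 CPM of 9 hepatocyte markers, among them ALB, APOA1 and TAT, was 12.07 ± 0.24 in biosolids males and 12.33 ± 0.10 in control males (SD, n = 7 each). In these males 9 of 9 hepatocyte markers had lower estimates with a median of -0.25, although 0 were called. Over all tested genes 48.7% of male estimates were below 0, with a median of 0.01. The summed level ran from 65887 to 115396 CPM in biosolids males and from 92038 to 121716 CPM in control males. Pericentral markers, which mark the zone around the central vein where CYP1A1 is typically inducible, had 8 of 9 lower estimates with a median of -0.32 in males. Their sum ran from 5605 to 10863 CPM in biosolids males and from 6204 to 11380 CPM in control males. Most of that sum was CYP2E1 alone, at 5221 to 10260 CPM in biosolids males and 5369 to 10408 CPM in control males. Periportal markers, of the opposite zone, had 7 of 8 lower with a median of -0.27, and their sum ran from 4855 to 10774 CPM in biosolids males and from 6613 to 12053 CPM in control males. Of other cell types, 10 of 14 stellate cell markers were lower with a median of -0.18, and 5 of 5 T and NK cell markers with a median of -0.19. Cholangiocyte markers had 2 of 6 lower with a median of 0.18, endothelial markers 3 of 7 with a median of 0.01, and Kupffer cell markers 3 of 5 tested with a median of -0.03. No hepatocyte, pericentral or periportal marker was at 0 in every lamb. In whole tissue, fewer cells of a type and less RNA per cell cannot be told apart, and the part of these markers in the CYP1A1 difference was not tested.

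TIPARP (chromosome 1, 231656875 to 231800081, minus strand, 6 exons) is an induced target in mammals and feeds back on AHR. Its lowest, median and highest levels were 12.8, 16.6 and 20.5 CPM in biosolids females, against 10.9, 16.9 and 29.5 CPM in control females. In males they were 13.4, 19.0 and 21.3 CPM with biosolids, against 14.4, 19.0 and 22.9 CPM in controls. The ranges overlapped in both sexes, though 3 of 8 control females lay above every biosolids female. The top value belonged to control female 8263. On the log2 scale the estimates were -0.13 ± 0.14 in females and -0.04 ± 0.15 in males, where CYP1A1 had its estimate of -1.13. Without library 8778 the male value was -0.055.

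UGT1A6 (chromosome 1, 7254898 to 7413990, minus strand, 5 exons), which attaches glucuronic acid to phenols, spread widely within every group. In females its lowest, median and highest levels were 19.96, 56.4 and 88.3 CPM with biosolids, against 18.8, 47.9 and 114 CPM in controls. In males they were 22.6, 80.9 and 163 CPM with biosolids, against 54.7, 101 and 128 CPM in controls. Biosolids males held both the lowest and the highest male values, so the exposed range enclosed the control range. Its log2 estimates were -0.08 ± 0.37 in females and -0.31 ± 0.40 in males, and -0.18 in males without library 8778. These values carry a limit of the gene model: 1384 of the 2286 exonic bases, in the exons after the first, are shared with the rows of UGT1A1, UGT1A3 and UGT1A4, and 902 bases are its own. The UGT1A9 row shares 1383 bases with UGT1A6 as well. The sources used here do not say how reads in the shared bases were assigned. UGT1A6 took a median of 22.9% of the counts of the 5 UGT1A rows, and UGT1A1, the bilirubin conjugating enzyme, 59.6%.

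ALDH3A1 (chromosome 11, 33634948 to 33642955, plus strand, 11 exons), one of the most inducible AHR targets in rat liver, was barely detected. Its counts had a lowest, median and highest of 0, 4 and 8 in biosolids females, against 0, 2 and 24 in control females, which is 0 to 0.194 CPM against 0 to 0.607 CPM. In males the counts were 1, 3 and 26 with biosolids, against 2, 17 and 50 in controls, or 0.0262 to 0.597 CPM against 0.0557 to 1.01 CPM. The control males held the highest median, and the ranges overlapped. The gene passed the filter on low counts but not a stricter one of at least 1 CPM in 15 libraries. In 4 females the count was 0, in which case 3 counts would set an upper limit of 0.0658 to 0.0878 CPM for counting error alone. The fold change on the log2 scale was -0.71 ± 0.76 in females and -1.27 ± 0.76 in males, with adjusted p = 1 and 0.816 in edgeR. By limma voom the female estimate had the other sign, at 0.84. With single lambs left out, the female value ran from -0.90 to -0.081, the last without control female 8322, and the male value from -2.05, without biosolids male 8770, to -0.94, without control male 8428; it was -1.31 without library 8778. In controls it was 1.40 ± 0.71 for males over females, with an adjusted p of 0.275.

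LRAT (chromosome 17, 2815758 to 2824655, minus strand, 2 exons) had lowest, median and highest levels of 12.2, 18.1 and 24.7 CPM in biosolids females, against 13.8, 19.9 and 28.6 CPM in control females. In males they were 10.7, 15.4 and 25.6 CPM with biosolids, against 10.6, 16.1 and 27.3 CPM in controls. The ranges overlapped in females and in males. The log2 fold change was -0.16 ± 0.19 in females and 0.02 ± 0.20 in males. The male value was -0.09 without library 8778, which had the highest LRAT level of the biosolids males.

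SLC7A5 (chromosome 14, 12844368 to 12873343, minus strand, 10 exons) was low in liver. Its lowest, median and highest levels were 2.85, 4.90 and 6.12 CPM in biosolids females, against 1.996, 4.49 and 5.53 CPM in control females. In males they were 2.49, 4.24 and 9.27 CPM with biosolids, against 3.82, 5.61 and 7.16 CPM in controls. The ranges overlapped, with biosolids male 8770 at the top. Log2 estimates were 0.16 ± 0.22 in females and -0.13 ± 0.24 in males, and -0.099 in males without library 8778.

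**Figure D2:**
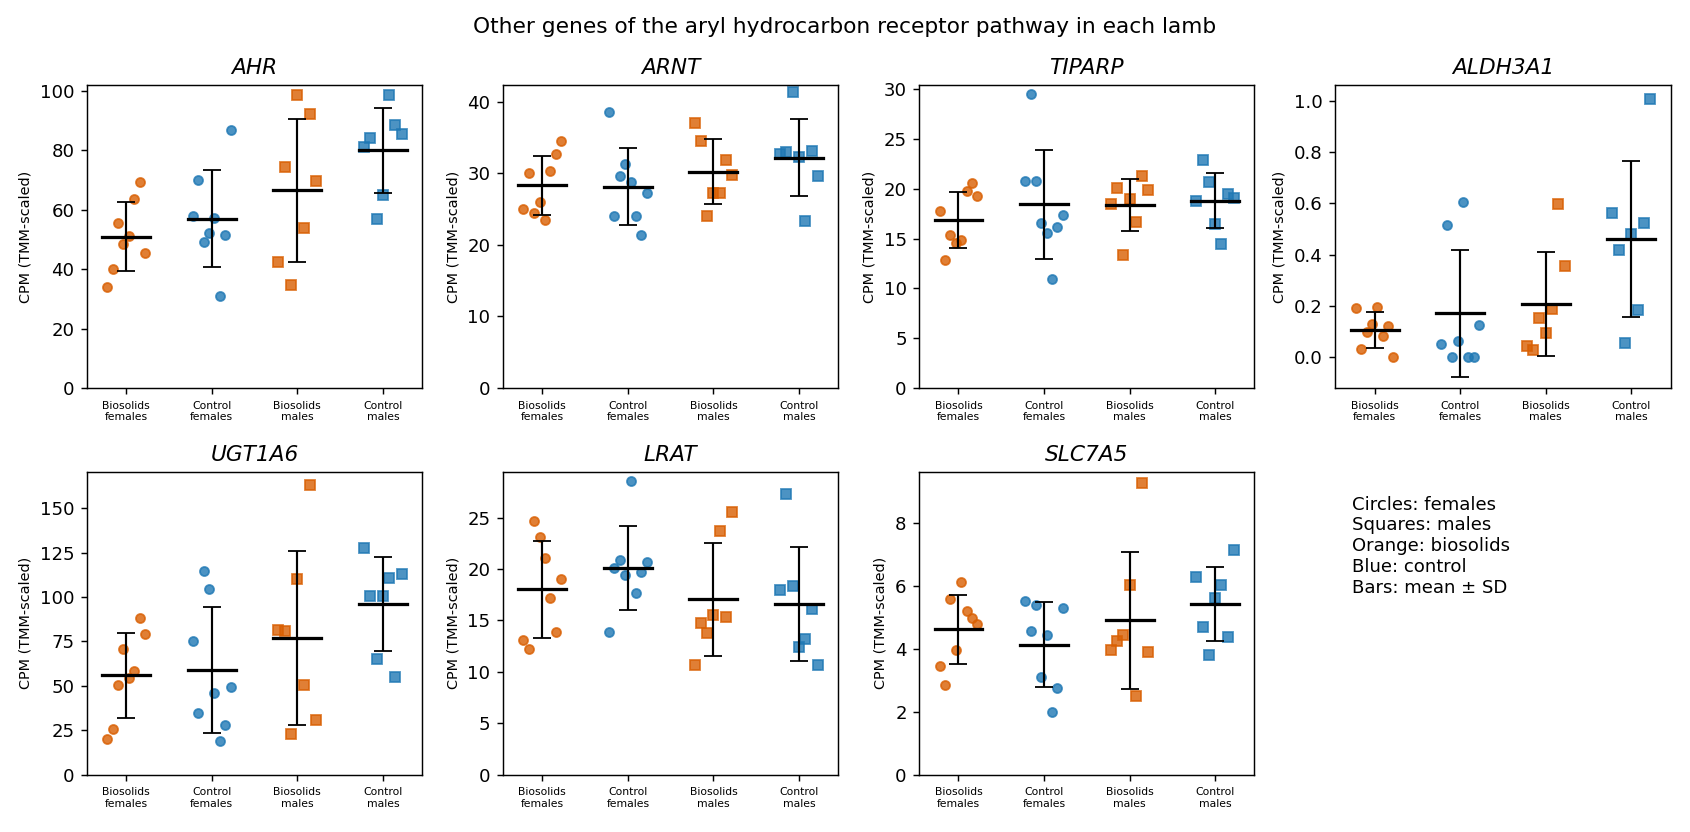
Level of the 7 other genes in each lamb, in TMM-scaled CPM on linear axes with a scale of their own per gene, by exposure and sex; bars give the mean ± SD. Every exposed group overlaps its control group, as for AHR in males at 34.7 to 98.6 CPM with biosolids and 56.8 to 98.7 CPM in controls.

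Side by side, 3 of the 8 genes had higher and 5 lower estimates in biosolids females, with a median of -0.10, and over all tested genes the median was -0.02 with 54.1% below 0. In biosolids males 1 of 8 was higher and 7 were lower, with a median of -0.20, against a median of 0.01 and 48.7% below 0 over all tested genes. Averaged over both sexes, 7 of 8 estimates were lower, between -0.99 for ALDH3A1 and -0.04 for ARNT, and SLC7A5 was at 0.02. For males over females in controls, 7 of 8 were higher, though TIPARP lay near 0 and changed sign under a stricter filter, and LRAT alone was lower, at -0.28. In that contrast 0.0841% of all genes were called, and 0 of the 8. In exposed lambs 0.0953% of all genes were called between the sexes, again 0 of the 8; at the unadjusted threshold the share was 4.85%, with CYP1A1 as 1 of the 8.

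**Figure D3:**
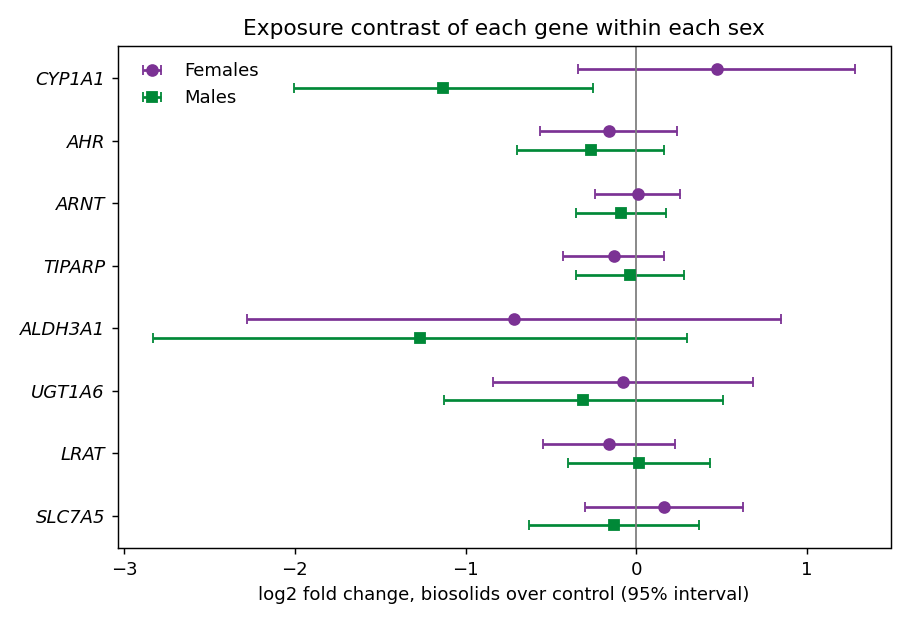
Log2 fold change, biosolids over control, of each gene in females (circles) and males (squares), with 95% intervals from the fit across all genes. CYP1A1 in males, at -1.13, is the one interval that does not reach 0, and no gene passes after adjustment over all 17840 genes.

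Per kilobase of exon, which allows levels of different genes to be set side by side, CYP1A1 came first with a median of 98.0 CPM per kb over the 30 lambs. UGT1A6 followed at 29.7, ARNT at 12.7, AHR at 10.01, TIPARP at 4.65, LRAT at 3.85, SLC7A5 at 1.15 and ALDH3A1 at 0.0802 CPM per kb. CYP1A1 was above UGT1A6 in 29 of 30 lambs, and AHR was above TIPARP in 30 of 30. ARNT was above AHR in 21 of 30 and TIPARP above LRAT in 19 of 30, so those neighbours were not clearly ordered. The UGT1A6 level rests on partly shared exons.

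The 2 enzymes CYP1A1 and UGT1A6 varied more between lambs of the same group than most genes of like level. The within-group SD of log2 CPM was 0.87 for CYP1A1, against a median of 0.40 over 692 genes within 2 times its mean level, of which 96.0% had a smaller SD. For UGT1A6 it was 0.82, against 0.31, with 97.1% of 2772 such genes below it. AHR had an SD of 0.41, against 0.31, and 76.9% of its peers were steadier. ARNT, at 0.24 against 0.29, was steadier than most of its peers, and TIPARP, at 0.29 against 0.29, was near the middle. These shares describe the genes and carry no test.

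No relation of CYP1A1 with the other 7 genes passed. Over the 30 lambs, 7 relations of log2 CPM with CYP1A1 were computed, with permutation p-values adjusted over the 7. With AHR, Pearson's r was -0.06 (permutation p = 0.754, adjusted 0.775) and Spearman's rho was -0.04 (p = 0.851). ARNT came closest, with r = 0.36 (permutation p = 0.0511, adjusted 0.357) and rho = 0.34 (p = 0.0685, adjusted 0.48), and r was 0.34 without the 2 lambs farthest from the median, control male 8351 and control female 8378. For the other known targets r was 0.15 with UGT1A6, -0.15 with TIPARP and -0.05 with ALDH3A1, and 0 of the 7 relations passed. Control male 8351, first of 30 in CYP1A1, was 8th in AHR and 15th in TIPARP. Biosolids female 8649, second in CYP1A1, was 27th in AHR and 29th in TIPARP.

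Among the other genes several moved together. Of 28 pairs, 8 passed by Pearson's r after adjustment over the 28, and 5 of these also by Spearman's rho. Of the 8, 0 involved CYP1A1 or LRAT. The share of pairs of other liver genes that would pass was not computed, so the count is not a trait particular to these genes. UGT1A6 and SLC7A5 had r = 0.67 (permutation p = 4e-05, adjusted 0.0011) and rho = 0.64 (p = 0.00018, adjusted 0.0050). Without the 2 lambs farthest from the UGT1A6 median, r was 0.59. AHR and SLC7A5 had r = 0.64 (permutation p = 0.00011, adjusted 0.0015) and rho = 0.58 (p = 0.00102, adjusted 0.0095). Without the 2 lambs farthest from the AHR median, r was 0.55. AHR and UGT1A6 had r = 0.64 (permutation p = 0.00017, adjusted 0.0016) and rho = 0.53 (p = 0.00289, adjusted 0.0202). Without the same 2 lambs, r was 0.56. The other pairs that passed by r were AHR with ALDH3A1 and with TIPARP, ARNT with UGT1A6 and with TIPARP, and ALDH3A1 with SLC7A5, at 0.46 to 0.54. After the group means were taken off, 4 of the 8 still passed: UGT1A6 with SLC7A5, and AHR with SLC7A5, UGT1A6 and TIPARP. ALDH3A1, at 0 counts in 4 lambs, rests on few counts. Its pairs with AHR and SLC7A5 no longer passed then, at adjusted permutation p of 0.114 and 0.0969. Within groups the relations were uneven. For AHR with UGT1A6, rho was 0.60 in biosolids females and 0.14 in control females, and 0.71 in biosolids males and 0.14 in control males. For UGT1A6 with SLC7A5 it was 0.26 in biosolids females and 0.69 in control females, and 0.57 in biosolids males and 0.89 in control males. For AHR with SLC7A5 it was 0.71 in biosolids females and 0.52 in control females, and 0.50 in biosolids males and 0.32 in control males. Differences between the groups in these values were not tested.

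**Figure D4:**
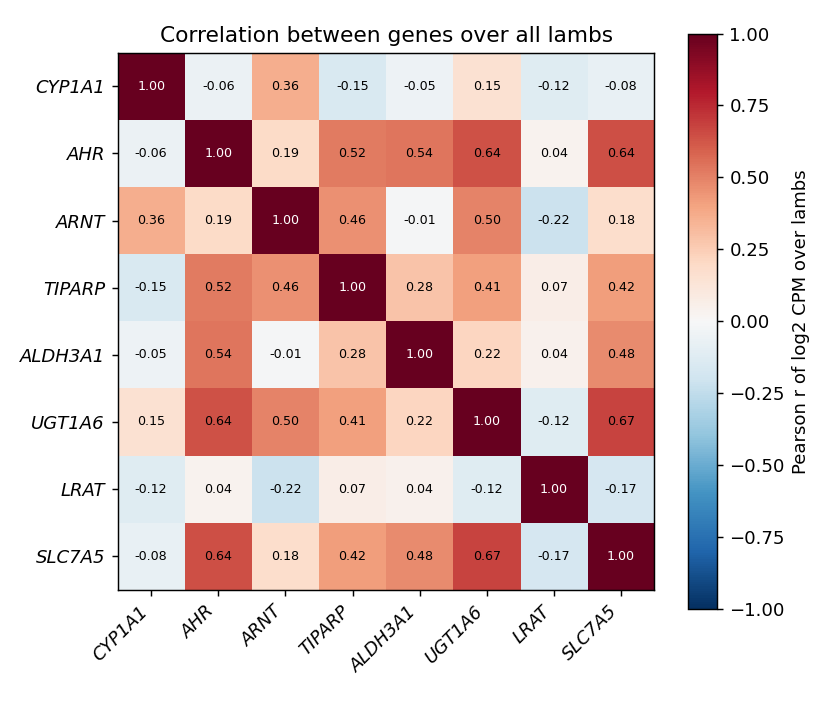
Pearson's r of log2 CPM over the 30 lambs for each pair of the 8 genes, on a colour scale from -1 to 1. The rows of AHR, UGT1A6 and SLC7A5 meet at 0.64 to 0.67, while the row of CYP1A1 runs from -0.15 to 0.36.

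Several of these genes also varied along with hepatocyte markers. Over 24 relations of the 8 genes with the mean of hepatocyte, pericentral and stellate cell markers, 6 passed by both r and rho after adjustment over the 24. How many of all tested genes would pass in the same way was not computed. With the hepatocyte markers ARNT had r = 0.73 and rho = 0.73 (permutation p = 2e-05 for both, adjusted 0.00024 and 0.00048). UGT1A6 had r = 0.72 and rho = 0.68 (permutation p = 2e-05 and 9e-05, adjusted 0.00024 and 0.00108), AHR had r = 0.59 and rho = 0.50 (p = 0.00066 and 0.00556, adjusted 0.00528 and 0.0222), and TIPARP had r = 0.52 and rho = 0.51 (p = 0.00301 and 0.00511, adjusted 0.0120 and 0.0222). Without the 2 lambs farthest from the median of the hepatocyte marker mean, these r were 0.69, 0.71, 0.52 and 0.38. CYP1A1 had r = 0.40 and rho = 0.42 with the hepatocyte markers (permutation p = 0.0305 and 0.0234, adjusted 0.0733 and 0.0624), and did not pass. The other 2 relations that passed were UGT1A6 with pericentral markers, at r = 0.54, and with stellate cell markers, at r = 0.54. SLC7A5 with pericentral markers passed by rho, at 0.49 (permutation p adjusted 0.0224), but not by r, at 0.37 (adjusted 0.0953). The pericentral mean includes SLC1A2, which ran from 0.11 to 184 CPM in biosolids females and from 0.0322 to 135 CPM in control females. In males SLC1A2 ran from 0 to 167 CPM with biosolids and from 0 to 266 CPM in controls. The pericentral mean had a SD of 0.57 to 0.92 within groups, against 0.10 to 0.31 for the hepatocyte mean. How far SLC1A2 carries the pericentral relations was not tested. LRAT, whose protein serves stellate cells, had r = -0.21 with stellate cell markers (permutation p adjusted 0.378).

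With both group means and the hepatocyte marker mean taken off, 2 of the 8 pairs still passed. UGT1A6 with SLC7A5 kept r = 0.62 (permutation p adjusted 0.0070), and AHR with SLC7A5 kept r = 0.59 (adjusted 0.0098). AHR with UGT1A6 was at 0.36, adjusted 0.168, and ARNT with UGT1A6 was at -0.08.

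**Figure D5:**
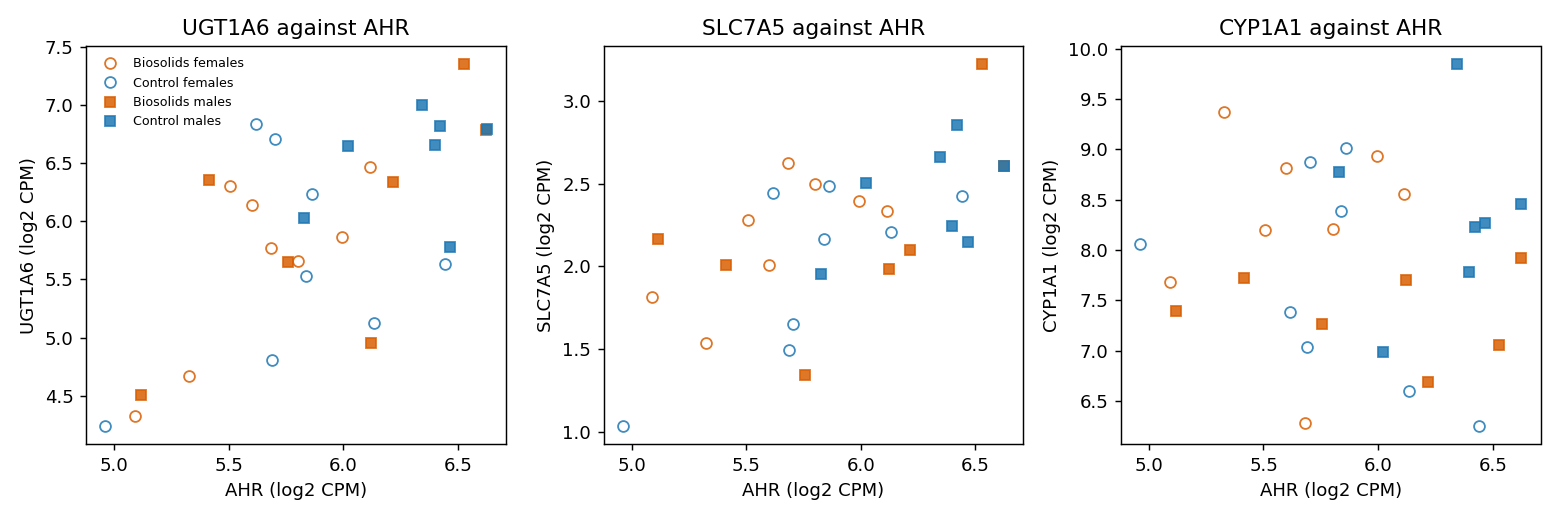
UGT1A6, SLC7A5 and CYP1A1 against AHR, each in log2 CPM, 1 point per lamb; open circles are females and filled squares males, coloured by exposure. UGT1A6 and SLC7A5 climb with AHR at r = 0.64 each, and CYP1A1 shows no slope at r = -0.06.

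Other genes of the pathway likewise gave 0 calls for exposure in either sex. Of 16 partners and coregulators of AHR, 14 were tested, and 10 were higher and 4 lower in biosolids females with a median of 0.01, against 3 higher and 11 lower in biosolids males with a median of -0.10. PTGES3, the co-chaperone p23 that holds the resting receptor, had an estimate of 0.25 ± 0.14 in males. Among biosolids males it was highest in library 8778, at 102 CPM where the group's median was 53.2 CPM. The kinase SRC, released from the complex on activation, had -0.20 ± 0.14 in males. In females the smallest p belonged to DDB1, at 0.19 ± 0.24, and ARNT2, at 0.20 ± 0.22. The repressor AHRR, itself an AHR target, was too low to test, at 0 to 0.563 CPM. Control male 8351 and biosolids female 8649, the first 2 lambs by CYP1A1, had 12 and 17 AHRR counts, where the median lamb had 4 and biosolids male 8695, at 103 CPM of CYP1A1, had 13. Over the 30 lambs AHRR and CYP1A1 had r = 0.34 (unadjusted permutation p = 0.0646) and rho = 0.30 (p = 0.113). Within groups rho was 0.45 in biosolids females, -0.12 in control females, -0.14 in biosolids males and 0.68 in control males.

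Further reported AHR targets were divided between higher and lower estimates. Of these, 15 of 15 were tested; in biosolids females 7 were higher and 8 lower with a median of -0.02, and in biosolids males 9 were higher and 6 lower with a median of 0.03. NQO1, a quinone reductase induced by AHR and NRF2, had 0.48 ± 0.30 in males. NEDD9, a scaffold protein of cell adhesion, had 0.23 ± 0.11 in females and -0.36 ± 0.12 in males, and the male effect minus the female effect was -0.59 ± 0.16 with a p in edgeR of 0.000903 unadjusted and 0.951 adjusted. NEDD9 thus had the same signs as CYP1A1 in both sexes and, like it, did not pass. SERPINB2 had -0.99 ± 0.55 in females.

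The enzymes that turn tryptophan into kynurenine, a source of natural AHR ligands, had 2 higher and 8 lower estimates of 10 in females with a median of -0.14, and 4 higher and 6 lower in males with a median of -0.14. IDO1, which opens that route in immune cells, had -3.15 ± 0.93 in females with an adjusted p of 0.95 in edgeR. Control female 8263 had 47.7 CPM, where its group's median was 0.972 CPM. AFMID, which hydrolyses formylkynurenine, had -0.61 ± 0.23 in females, and in males KYNU had 0.40 ± 0.15 and IDO2 -0.40 ± 0.19. Among biosolids males KYNU was highest in library 8778, at 131 CPM where the group's median was 89.6 CPM.

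ARNT also serves the hypoxia factors, and their list had 4 higher and 8 lower estimates of 12 in females, median -0.02, and 5 higher and 7 lower in males, median -0.08. ADM, the vasodilator peptide gene, had -1.05 ± 0.33 in females, again with control female 8263 far from its group, at 48.4 CPM against a median of 8.36 CPM. CA9, a carbonic anhydrase, had -0.73 ± 0.39 in females, and in males HIF3A had 0.35 ± 0.24 and the mitophagy receptor BNIP3 -0.25 ± 0.15. Among biosolids males HIF3A was highest in library 8778, at 3.90 CPM where the group's median was 3.06 CPM.

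Around LRAT, 14 of 16 genes of retinoid handling were tested, with 5 higher and 9 lower in females, median -0.03, and 4 higher and 10 lower in males, median -0.08. The reductase RDH11 had -0.50 ± 0.26 in females and 0.52 ± 0.28 in males. BCO2, which cleaves carotenoids, had 0.49 ± 0.26 in males. Among biosolids males BCO2 was highest in library 8778, at 265 CPM where the group's median was 133 CPM. Around SLC7A5, 12 of 14 genes of amino acid transport and ATF4 response were tested, with 7 higher and 5 lower in females, median 0.03, and 6 higher and 6 lower in males, median -0.01. The exchanger SLC7A8 had 0.63 ± 0.39 and SLC38A2 0.48 ± 0.28 in females, while SLC43A1 had -0.35 ± 0.17 and TRIB3 -0.37 ± 0.21 in males.

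A list of 7 genes of the other xenobiotic receptors and their targets had 1 higher and 6 lower estimates in each sex, with a median of -0.17 in females and -0.20 in males. CYP2C19 had -0.74 ± 0.47 and the efflux pump ABCB1 -0.32 ± 0.18 in females. In males ALAS1, which starts haem synthesis for cytochromes P450, had -0.53 ± 0.25 and ABCB1 -0.20 ± 0.19. None of these passed, with adjusted p between 0.816 and 1 for the genes named.

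Of the 12046 genes with a mean of at least 1 CPM that were ranked by likeness to CYP1A1 over the 30 lambs, ARNT came at place 1016, UGT1A6 at 3486, AHR at 7236 and TIPARP at 8022. The genes most like CYP1A1 were TACC2, with Spearman's rho of 0.68, TTC39A at 0.64, and ANGPTL4, PPTC7 and PMVK at 0.60 each. ANGPTL4 inhibits lipoprotein lipase, and PMVK is a kinase of the mevalonate route. The genes most opposed were DOC2B, at -0.71, a calcium sensor of vesicle release, then NRM at -0.61, TEC and KCTD7 at -0.60 and HOMER1 at -0.59. DOC2B ran against CYP1A1 within each group as well, with rho of -0.67 in biosolids females, -0.69 in control females, -0.68 in biosolids males and -0.68 in control males. TACC2 ran with CYP1A1 in females, with rho of 0.86 in biosolids and 0.69 in controls, but had 0.04 in biosolids males and 0.21 in control males. TEC turned in biosolids males, with rho of 0.79, against -0.50 in biosolids females, -0.60 in control females and -0.75 in control males. PMVK had -0.14 in biosolids males, against 0.57 in biosolids females, 0.71 in control females and 0.25 in control males. These genes are the extremes of many, and their values are a description of these lambs.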

How the data were processed

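Whole-number gene counts of 30 liver libraries were used as deposited, in 1 table with a column per lamb and 0 columns without one. RNA came from frozen tissue by RNeasy kit, and TruSeq RNA libraries were sequenced on a NovaSeq S4, per the labels' protocols. The submitters' processing notes name STAR, featureCounts 1.5.0-p3, Trimmomatic, FastQC and MultiQC; strand and multi-mapping settings are not given in the sources used here. The pieces of 7 genes broken over 25 lines were joined. Of the symbols, 28862 matched RefSeq's ARS-UI_Ramb_v3.0, and 28855 of 28855 compared positions were identical.

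The genes, lists and tests were chosen with earlier results of these data known. The named genes were the 8, of each other list the 2 with the smallest p in each sex, and the 5 most and 5 least like CYP1A1; NEDD9's difference between the sexes, the AHRR row and single lambs were named after their values were seen. List members with no row are not analysed here, and some genes the rule names are not reported here. Genes were kept by filterByExpr (17840), and 1 model with 4 group means was fitted to counts in edgeR 4.0.16 (R 4.3.3; robust quasi-likelihood, TMM, 26 residual degrees of freedom, biological coefficient of variation 35.2%). Calls needed a p under 0.05 after Benjamini-Hochberg adjustment over these genes, and every adjusted p of a single gene is of that kind. Standard errors came from the F statistic. Log2 CPM used a prior count of 2. Permutation tests were two-sided, exact for CYP1A1 and with 100000 resamples for relations over lambs; marker relations and pairs less group or marker means were added after the data were seen. The alternatives tried were DESeq2 1.42.0, RLE scaling, limma 3.58.1 voom with quality weights, 2 other filters, leaving out 25 ribosomal RNA rows, and leaving out each lamb. The fit was checked on simulated counts. Litter and batch are not labelled, and the tag numbers of control and biosolids lambs form separate ranges; flock, or day of processing, and exposure cannot be told apart, and p-values measure the spread between these lambs.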

Additional observations from a re-analysis of the deposited data

Results flagged for a closer look

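Control male 8351 stood far from the other control males in CYP1A1, at 921 CPM where the other 6 lay between 127 and 438 CPM. Its gap to the nearest lamb was 0.608 of the group's whole range. Of 32 groups of values examined, 1 was marked, and chance marks about 1 in 20 groups, or 1.6 of these 32. In the same lamb AHR ranked 8th and UGT1A6 second of 30. The male CYP1A1 estimate without it was -0.74, with a p in edgeR of 0.0786 unadjusted and 0.959 adjusted.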

How the results depend on the processing

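Across the alternatives no gene of the 8 was called in any contrast; the smallest adjusted p was 0.0653, for ALDH3A1 between the sexes in controls by limma voom, at 2.87. Of 1440 estimates with 1 lamb left out, 1404 kept their direction, and of 282 under other settings 278 did. With the adjusted threshold, DESeq2 called 4 genes for exposure in males, 4 over both sexes, 1 for the difference between the sexes and 54 for sex in controls (15 by edgeR), where limma voom called 64. The stricter filter of at least 1 CPM in 15 libraries left 3 genes called for sex in controls and 7 in exposed lambs, against 17 by edgeR with its own filter; ALDH3A1 could not be tested under it. Leaving out lambs gave 10 to 23 calls for sex in controls and 12 to 21 in exposed lambs. Directions turned by limma voom for ARNT in females (-0.046), ALDH3A1 in females (0.84) and LRAT in males (-0.030), by the stricter filter for TIPARP between the sexes in controls (-0.0011), and for ARNT with UGT1A6 less group and hepatocyte marker means (-0.084).

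With 1 lamb left out, estimates crossed 0 for ARNT (-0.039 to 0.087), TIPARP (-0.21 to 0.0018) and UGT1A6 (-0.21 to 0.13) in females, and for TIPARP (-0.092 to 0.029) and LRAT (-0.092 to 0.18) in males. They crossed 0 over both sexes for LRAT (-0.13 to 0.011) and SLC7A5 (-0.10 to 0.076), and for the difference between the sexes for AHR (-0.23 to 0.0054) and TIPARP (-0.027 to 0.19). Between the sexes they did so for TIPARP in controls (-0.069 to 0.14) and SLC7A5 in exposed lambs (-0.15 to 0.22). The cause was not tested. For CYP1A1 the estimates stayed between -1.28 and -0.74 in males, 0.28 and 0.70 in females, and -1.83 and -1.21 for the difference, and the exact permutation p in males between 0.00117 and 0.0449. No paired analysis was possible because the groups share no replicate numbers. Depth limits ALDH3A1 and AHRR, and in biosolids male 8778 the other weak genes.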
